A study of Mus musculus with 12 samples.

Results

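The Reg genes encode small secreted proteins built around a C-type lectin domain. Their levels were read in the acid-secreting (fundic) stomach lining of mice that made, lacked or were given back the hormone gastrin. The members were the probe sets whose single gene symbol was Reg1, Reg2, Reg3a, Reg3b or Reg3g, and these were 6 of the 22626 probe sets tested, for 5 of 12393 genes with a symbol. No probe set that carried several symbols had one of these among them. RNA came from mucosal scrapings, each hybridised to 1 one-colour array, with 12 arrays in 4 groups of 3.

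The first group was gastrin knockout mice infused with gastrin for 1 week. The next was mice lacking both gastrin and cholecystokinin (CCK), called the double knockout. The saline-infused group was gastrin knockout mice, given as males 2 months old, infused with saline for 1 week. The last group was wild type. The labels give no infusion for the double knockout or wild type and an age only for the saline-infused group, so infusion and genotype cannot be told apart between the infused and the other groups. The wild-type RNA came from about 2 to 4 dissected mice. Whether the 3 samples of each group were different animals is not stated, and the p-values therefore reflect a sample-to-sample spread that could be purely technical.

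Gastrin is the peptide hormone that drives acid secretion and the growth of the fundic lining through its receptor Cckbr. Reg1 is found in rodents in the stomach and in the acinar pancreas, where it is studied as a growth factor, and it has been described as a gastrin-responsive gene in the stomach. Reg2 is made mainly by the mouse pancreas. Reg3b and Reg3g are lectins of the gut lining that act against bacteria, and interleukin-22 and STAT3 signalling are known to raise them. Reg3a of the mouse is a relative made in pancreas and intestine.

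The 5 genes lie on mouse chromosome 6 in the GRCm38.p6 annotation, in the order Reg3b, Reg3d, Reg3a, Reg2, Reg1, the pseudogene Gm52853 and Reg3g. RefSeq promoter windows of 250 bases before to 50 bases after the start were available for all 5 members. The core of each window, 40 bases before and 50 bases from the start site, is printed 5′ to 3′ on the gene's own strand because it shows how closely the members resemble each other in the letters around the start. Capitals mark TATAAA and the 7-base run CCTGACA.
Reg1, chr6:78425943-78426032, plus strand: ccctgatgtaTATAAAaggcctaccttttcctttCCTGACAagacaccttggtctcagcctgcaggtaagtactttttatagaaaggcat
Reg2, chr6:78405115-78405204, plus strand: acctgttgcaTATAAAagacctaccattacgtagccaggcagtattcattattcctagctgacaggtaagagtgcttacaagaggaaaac
Reg3a, chr6:78380669-78380758, plus strand: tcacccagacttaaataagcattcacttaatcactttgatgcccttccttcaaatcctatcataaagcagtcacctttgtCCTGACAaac
Reg3b, chr6:78370845-78370934, plus strand: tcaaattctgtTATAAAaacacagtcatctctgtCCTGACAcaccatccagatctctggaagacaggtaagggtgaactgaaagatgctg
Reg3g, chr6:78468825-78468914, minus strand: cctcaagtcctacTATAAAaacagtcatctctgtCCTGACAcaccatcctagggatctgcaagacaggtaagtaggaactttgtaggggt

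TATAAA on the gene's strand began 30 bases before the start in Reg1 and Reg2, 29 bases before it in Reg3b and 27 bases before it in Reg3g. It was not in this stretch of Reg3a. Of all 32851 promoter windows, 603 (1.84%) held TATAAA on the gene strand starting between 35 and 20 bases before the start, and 13.6% held it anywhere on either strand. CCTGACA, a run picked after the sequences were read, started 6 bases before the start site in Reg1, Reg3b and Reg3g. It stood at that position in 13 of 32851 windows (0.0396%) and anywhere on either strand in 4.99%. It began 41 bases into Reg3a and was not found in Reg2. A run of 14 bases shared by Reg3a and Reg3g began 10 bases before the start in Reg3a and 57 bases before it in Reg3g. By these letters the printed Reg3a core is shifted against that of Reg3g. Over the whole 300-base windows, Reg3b and Reg3g were 69.0% identical and shared a run of 29 bases, whereas Reg1 and Reg2 were 58.5% identical and the other member pairs 49.9% to 55.2%. Reg4, a family gene on chromosome 3, aligned to the 5 members at 49.1% to 50.1%. Identities near 50% were thus also reached by a window from elsewhere in the genome.

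A STAT-type half-site pair, TTCNNNGAA searched on both strands, was found in Reg3b, starting at position -129 (the base before the start is -1), and in 8.30% of all windows. The same half-sites with 4 free bases between them were found in Reg1, starting at position -244, and in 6.95% of windows. CACCTG was found in Reg2, Reg3a and Reg3b and in 20.2% of windows, and GGGCGG in no member and in 35.7% of windows. These matches describe letters and say nothing of binding.

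Whether the arrays could see the members was checked first, against a noise level that is not a detection call. Each array's noise level was taken as the size of its 1st-percentile intensity, which was negative, and it lay between 67 and 96. Reg1 (1415905_at), Reg2 (1416139_at) and 1 of the Reg3b probe sets (1416297_s_at) exceeded it on 12 of 12 arrays. All 3 were dim: they lay below their array's median intensity, 403 to 421, on 12, 11 and 10 of the 12 arrays. Reg1 in wild type read 122, 134 and 167 against noise levels of 87.75, 78 and 75. Its folds against wild type therefore rest on reference values close to noise.

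The other 3 probe sets had only a bound. The second Reg3b probe set (1448290_at) was above noise on 0 of 12 arrays, with 15, 62 and 51 intensity units in gastrin-infused knockouts, 72, 29 and 57 in double knockouts, 20, 47 and -17 in saline-infused knockouts, and 55, -30 and 39 in wild type. Reg3a (1449495_at) was above noise on 2 arrays, with -31, 70 and 66 in gastrin-infused knockouts, 60, 47 and 76 in double knockouts, 53, 112 and 79 in saline-infused knockouts, and 95, -26 and -4 in wild type. For these probe sets all groups overlapped the noise, so no fold is given. The Reg3b probe sets therefore differed in what they could show, and the one with signal has the suffix that in the maker's naming marks probes shared by several transcripts, so RNA of a near relative could add to it.

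**Figure D1:**
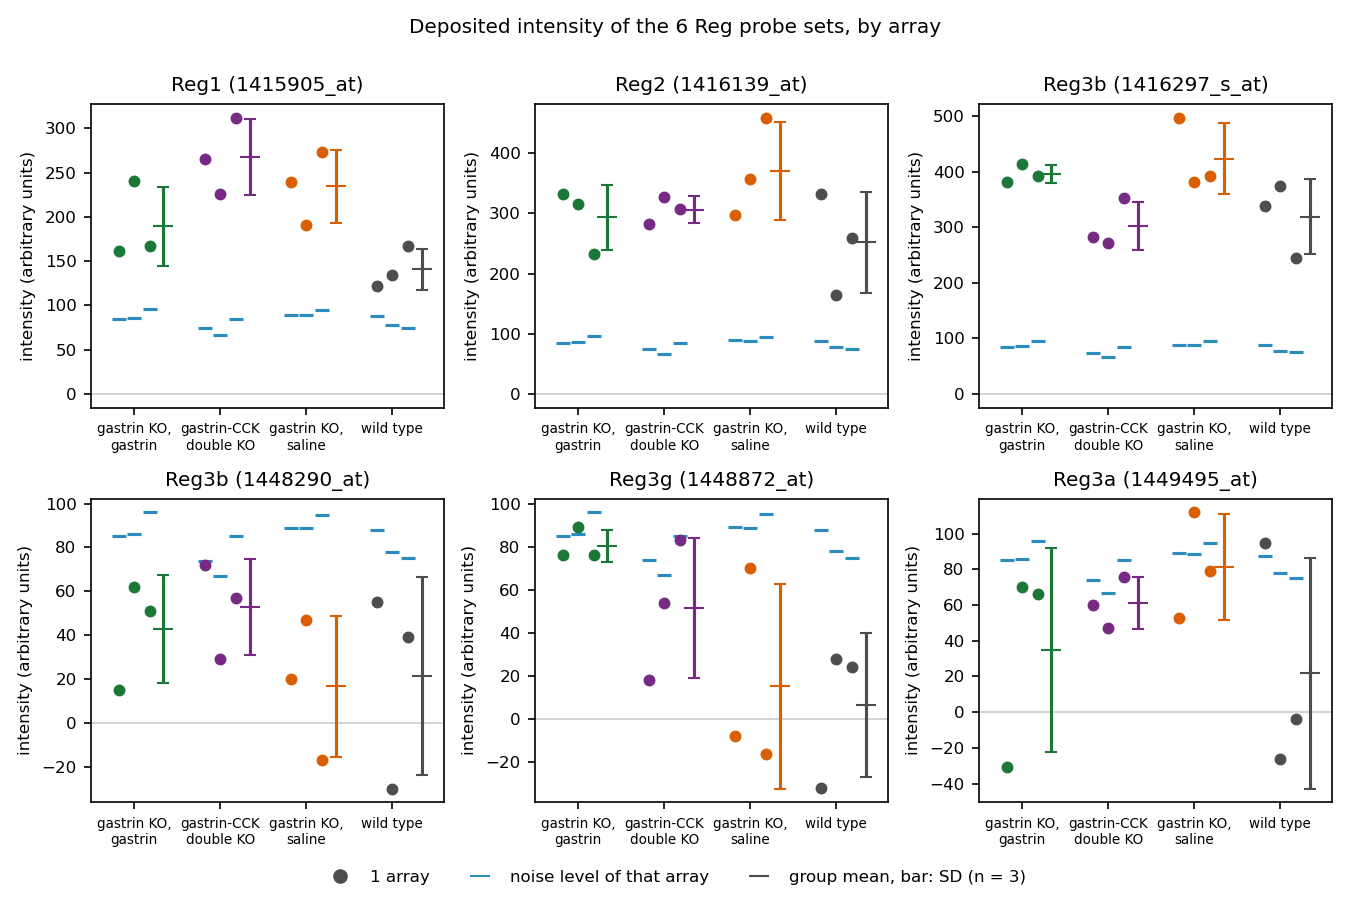
Deposited intensity (arbitrary units) of the 6 Reg probe sets on each of the 12 arrays, with points for arrays, blue ticks for each array's noise level and bars for the group mean ± SD (n = 3). Reg1 spans 122 to 312, Reg2 164 to 459 and the brighter Reg3b probe set 245 to 497, all above noise, while the lower 3 panels lie mostly inside it.

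Gast checked the labels. Its probe set read -72, -34 and -43 in gastrin-infused knockouts, -64, -35 and -162 in double knockouts and 37, -8 and 31 in saline-infused knockouts, against 596, 318 and 823 in wild type. Its signal was above noise on the 3 wild-type arrays alone; infused peptide adds no transcript. Cck was above noise on 3 of 12 arrays and could not check its deletion. Double-knockout arrays stood apart at the bright end: colipase (Clps) read 56186 to 68298 there, against 88899 to 106073 in saline-infused knockouts and 89168 to 102608 in wild type. The ratio of Gapdh 3′ to 5′ signal, a measure of RNA integrity, was 1.17 to 1.21 in gastrin-infused knockouts, 1.29 to 1.32 in double knockouts, 1.01 to 1.18 in saline-infused knockouts and 0.983 to 2.00 in wild type.

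Reg1 averaged higher in both groups that lack gastrin than in the other groups, with calls that ended under most other settings, as given below. Its intensities were 161, 241 and 167 in gastrin-infused knockouts, 265, 226 and 312 in double knockouts, 240, 191 and 273 in saline-infused knockouts, and 122, 134 and 167 in wild type. Every double-knockout and every saline-infused array lay above every wild-type array, while the gastrin-infused group overlapped all 3 other groups. It averaged 189.7 ± 44.6 in gastrin-infused, 268 ± 43.1 in double and 235 ± 41.3 in saline-infused knockouts, and 141 ± 23.3 in wild type (SD, n = 3 each). In RNA of a scraping, fewer cells that make a transcript and less of it per cell cannot be told apart.

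The double knockout against wild type asked what losing both hormones changed. Reg1 was 1.90-fold higher in the double knockout (1.37 to 2.63; log2 difference 0.92 ± 0.21 SE), with a limma adjusted p of 0.0444, where a value under 0.05, adjusted over all probe sets, counts as a call. It was 1 of 6 Reg probe sets called, against 4.14% of all probe sets called in either direction. It was also the 1 of 6 whose groups did not overlap, against 24.5% of all probe sets. The 3 detected probe sets differed by 0.92, 0.34 and -0.07, a median of 0.34, against 0 over all probe sets. Reg1 fell short of the threshold under 17 of 21 other settings, where its difference stayed between 0.67 and 1.05, and the adjusted p over all settings ran from 0.0361 to 0.432. Leaving out 1 array ended the call for 11 of the 12 arrays; the exception was gastrin-infused replicate 2.

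The saline-infused knockout against wild type compared mice that lack gastrin but not CCK with mice that make both. An infusion is stated for the knockout only, so the comparison does not isolate the loss of gastrin. Reg1 was 1.66-fold higher in the knockout (log2 difference 0.73 ± 0.21; 95% interval 0.26 to 1.20), which did not pass (adjusted p = 0.113). The log2 difference was 0.48 without the 2 wild-type arrays of highest Gapdh ratio. The comparison shares its wild-type arrays with the one above, so both differences carry the same 3 reference values. None of 6 Reg probe sets was called (0, against 2.08% of all probe sets), although 3 had an unadjusted p under 0.05. Groups did not overlap for 2 of them, Reg1 and Reg3b (1416297_s_at), against 23.4% of all probe sets.

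Gastrin infusion in the knockout asked whether the hormone reverses the change. Reg1 in gastrin-infused against saline-infused knockouts differed by -0.32 ± 0.21 log2 units (95% interval -0.78 to 0.15; adjusted p = 0.518), and by -0.50 to -0.20 with 1 array left out. The interval allows a fall of the size seen in the knockout and allows no change. None of the 6 Reg probe sets was called (0, against 1.25% of all probe sets), with 1 at an unadjusted p under 0.05, and 1 of 6 did not overlap, against 20.8% of all. The same infusion raised transcripts of known gastrin targets, given below.

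For the remaining pairs, Reg1 differed by 0.19 ± 0.21 log2 units between the double knockout and the saline-infused knockout (95% interval -0.28 to 0.66; adjusted p = 0.669). It differed by 0.42 ± 0.21 between gastrin-infused knockouts and wild type (-0.05 to 0.88; adjusted p = 0.490) and by -0.51 ± 0.21 between gastrin-infused and double knockouts (-0.98 to -0.04; adjusted p = 0.194). In the order of levels from the double knockout through the saline-infused and gastrin-infused knockouts to wild type, no neighbours differed past the test. In these 3 comparisons none of the 6 Reg probe sets was called (0 each), where 5.98%, 0.11% and 5.83% of all probe sets were. Those with an unadjusted p under 0.05 numbered 1, 1 and 2, and those whose groups did not overlap 1, 2 and 1, against 26.1%, 16.7% and 26.3% of all probe sets.

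Pooling the groups by gastrin used all 12 arrays. Reg1 read 191 to 312 on the 6 arrays without gastrin (double knockout and saline-infused), against 122 to 241 on the 6 with it (gastrin-infused and wild type), so the ranges overlapped. It rose 1.54-fold (log2 difference 0.62 ± 0.15; 95% interval 0.29 to 0.95; adjusted p = 0.0486), and was 1 of 6 Reg probe sets called, against 4.58% of all. None of the 6 was free of overlap (0, against 2.24% of all). The call held in 3 of 20 other settings, over which the difference was 0.41 to 0.71 and the adjusted p 0.0329 to 0.262, and it ended when any 1 array other than gastrin-infused replicate 2 was left out. Across the 4 groups together, Reg1's moderated F test gave an adjusted p of 0.0716, and none of the 6 passed it (0, against 7.7% of all probe sets).

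**Figure D2:**
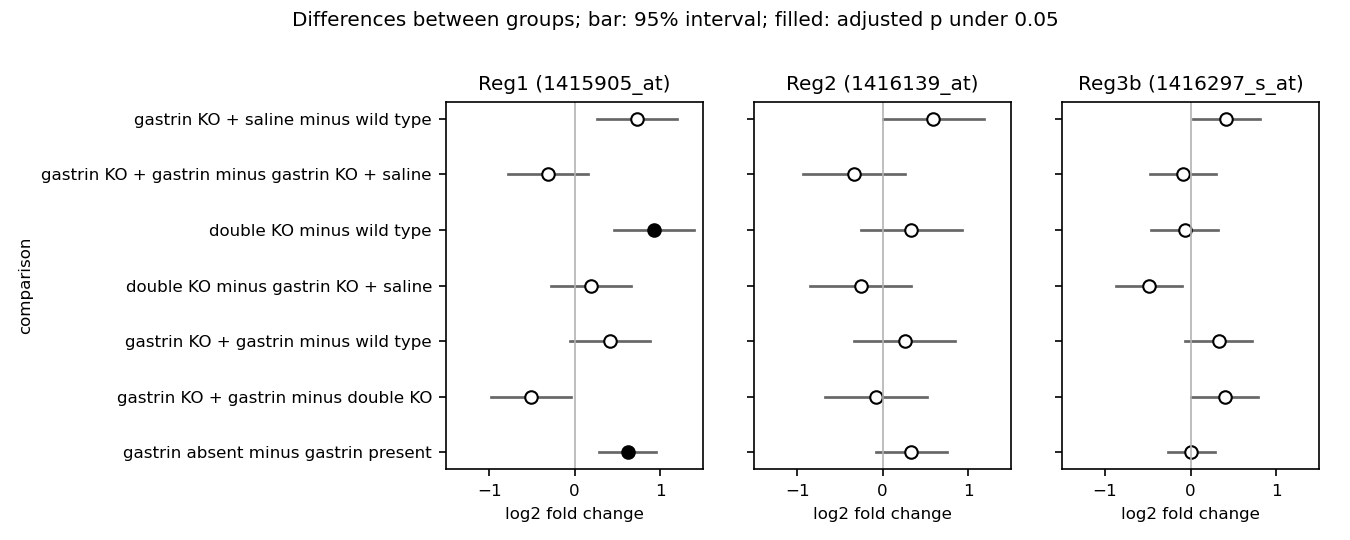
Log2 fold change (first-named minus second-named group, with 95% interval) of Reg1, Reg2 and the brighter Reg3b probe set in 7 comparisons, filled where the adjusted p is under 0.05. Only Reg1 has filled points, for the double knockout minus wild type (0.92) and gastrin absent minus present (0.62).

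In the 3 knockout groups, but not in wild type, Reg1's level moved with markers of the forestomach, the squamous part of the mouse stomach that borders the fundus. The summed intensity of 17 forestomach markers (of 19 listed) was 15360 to 39443 in gastrin-infused knockouts, 16627 to 65872 in double knockouts, 31327 to 81911 in saline-infused knockouts and 24440 to 43036 in wild type. In each of the first 3 groups the array with the highest sum had the highest Reg1: 39443 with 241 in gastrin-infused, 65872 with 312 in double and 81911 with 273 in saline-infused knockouts. In wild type the array with the highest sum, 43036, had the lowest Reg1, 122. As a description over 12 arrays, Pearson's r of log2 Reg1 with the log2 sum was 0.58. It was 0.69 after the group means were taken out. With the log2 Gapdh ratio these values were -0.44 and -0.40.

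Of the defining squamous markers, the keratin Krt4 read 506 to 3437 in gastrin-infused, 472 to 9375 in double and 1452 to 4187 in saline-infused knockouts, against 305 to 2221 in wild type. Other members of the list went the other way: Sprr1a read 7665 to 7997 in double knockouts and 13171 to 14813 in wild type. In that comparison the list's median log2 difference was 0.36, with 0 markers called higher and 0 lower. Ivl was within noise on all arrays. With the log2 sum as a covariate, an alternative added after the data were seen, Reg1 in the double knockout against wild type was 0.83 ± 0.16 (adjusted p = 0.0380). The pooled difference was then 0.41 ± 0.14 (adjusted p = 0.166), and that of saline-infused knockouts against wild type 0.52 ± 0.18 (adjusted p = 0.207). Gastrin-infused against saline-infused knockouts turned direction, to 0.01 ± 0.20 (adjusted p = 1.0), against -0.32 without the covariate. The part of this tissue in the pooled difference was not tested beyond that.

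**Figure D3:**
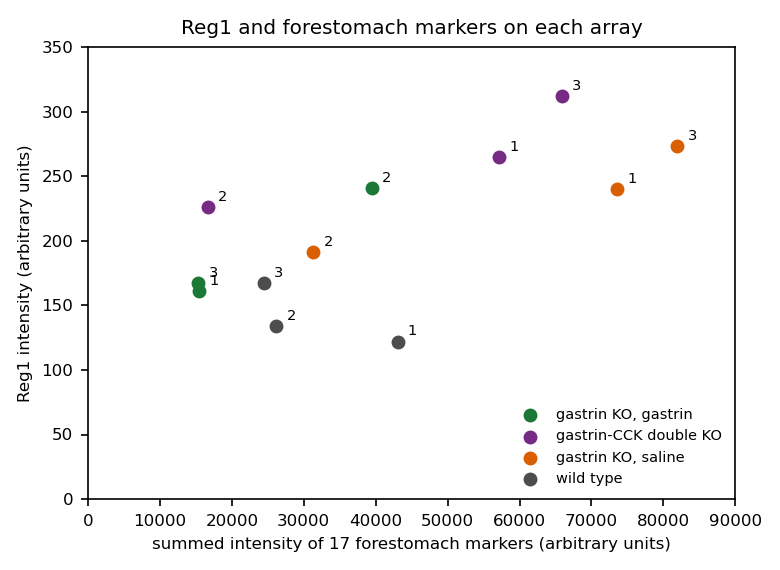
Reg1 intensity (y, arbitrary units) against the summed intensity of 17 forestomach markers (x, arbitrary units) on each array, numbered by replicate and coloured by group. In each knockout group the array with the highest sum has the highest Reg1, while wild-type replicate 1 has the highest sum of its group, 43036, and the lowest Reg1, 122.

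Pancreas is the tissue best known for Reg1 and Reg2. Of 33 listed pancreas markers 24 had a probe set; Clps supplied most of their summed intensity of 120575 to 125021 in gastrin-infused, 80931 to 89855 in double and 111694 to 128832 in saline-infused knockouts, against 111047 to 126537 in wild type. Of the 24, 15 were above noise on all 12 arrays, among them the trypsinogen Prss2 (1647 to 2283), the chymotrypsinogen Ctrb1 (1000 to 1312), the elastases Cela1 (1932 to 3860) and Cela3b (668 to 1117) and the lipase Cel (511 to 873). The other 9 were above noise on some arrays, such as carboxypeptidase A1 (Cpa1) on 5 and the trypsin inhibitor Spink1 on 2. Signal for pancreatic enzymes was therefore present in every group. In the double knockout against wild type no pancreas marker rose (0) and 2 fell, Clps and the lipase relative Pnliprp1. In the pooled comparison 0 rose and 3 fell. Of all probe sets, 4.14% and 4.58% were called in these comparisons. Clps averaged 63217 in double knockouts, 97702 in saline-infused knockouts and 97104 in wild type. Bright probe sets read lower on the double-knockout arrays, and the part of this in the Clps falls was not tested. The part of pancreatic RNA in the Reg1 and Reg2 values was not tested. Of 18 intestinal markers 14 were measured, and 7 were above noise on all 12 arrays, among them Vil1 (949 to 1963), the retinol carrier Rbp2 (2482 to 6170), Apoa1 (16293 to 35897) and the trefoil peptide Tff3 (472 to 1195). The intestinal regulators Cdx1 and Cdx2 were within noise on all arrays. In the pooled comparison 1 intestinal marker rose (the brush border protein Vil1) and 1 fell (Apoa1).

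Reg2 showed no called difference. It read 332, 316 and 232 in gastrin-infused knockouts, 283, 328 and 308 in double knockouts, 298, 357 and 459 in saline-infused knockouts, and 332, 164 and 260 in wild type. No pair of groups was free of overlap: the highest array, 459, was in saline-infused and the lowest, 164, in wild type. Reg2 averaged 293 ± 53.7 in gastrin-infused, 306 ± 22.5 in double and 371 ± 81.5 in saline-infused knockouts, and 252 ± 84.3 in wild type (SD, n = 3 each). Saline-infused knockouts exceeded wild type by 0.60 ± 0.26 log2 units (95% interval 0.00 to 1.19; unadjusted p = 0.0488, adjusted p = 0.278). This difference was 0.32 without wild-type replicate 2 and 0.33 with the Gapdh 3′ to 5′ ratio as a covariate. Gastrin-infused against saline-infused knockouts differed by -0.33 ± 0.26 (-0.93 to 0.26; adjusted p = 0.595), and the pooled difference was 0.34 ± 0.19 (-0.08 to 0.75; adjusted p = 0.348). The pooled difference was 0.20 without wild-type replicate 2, and the infused groups differed by -0.17 without either group's replicate 3.

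Reg3b (1416297_s_at) had no difference that passed the test, though it averaged higher in both infused groups than in the groups with no stated infusion. It read 381, 414 and 392 in gastrin-infused knockouts, 283, 271 and 352 in double knockouts, 497, 381 and 392 in saline-infused knockouts, and 339, 374 and 245 in wild type. All 6 arrays of infused mice lay above the 6 others, 381 to 497 against 245 to 374. The share of all probe sets that separate these arrays in this way was not counted, so how unusual the split is cannot be said. The probe set averaged 396 ± 16.8 in gastrin-infused, 302 ± 43.7 in double and 423 ± 64 in saline-infused knockouts, and 319 ± 66.7 in wild type (SD, n = 3 each).

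The double knockout was lower than the saline-infused knockout by 0.49 ± 0.17 log2 units (difference -0.49; 95% interval -0.88 to -0.10), which did not pass (unadjusted p = 0.0202, adjusted p = 0.140). Saline-infused knockouts differed from wild type by 0.42 ± 0.17 (adjusted p = 0.249). That difference was 0.24 without wild-type replicate 3, 0.67 with the Gapdh ratio as a covariate and 0.78 without the 2 wild-type arrays of highest Gapdh ratio. Gastrin-infused knockouts differed from wild type by 0.33 ± 0.17 (adjusted p = 0.504; 0.15, 0.50 and 0.69 under the same 3 settings), and from double knockouts by 0.40 ± 0.17 (adjusted p = 0.223). Between the infused groups, gastrin minus saline, the difference was -0.09 ± 0.17 (-0.48 to 0.30; adjusted p = 0.877), and with gastrin absent minus present it was 0.01 ± 0.12 (-0.27 to 0.29). The split by infusion was noticed in these values and has no test of its own here.

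Reg3g was at the edge of detection. It read 76, 89 and 76 in gastrin-infused knockouts, 18, 54 and 83 in double knockouts, -8, 70 and -16 in saline-infused knockouts, and -32, 28 and 24 in wild type. The gastrin-infused arrays lay above all saline-infused and all wild-type arrays, but 1 of the 12 arrays was above its noise level. Adjusted p was 0.275 against saline-infused knockouts and 0.342 against wild type, and no fold is given because the values are within noise.

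The 3 detected members did not follow one another closely. As a description over 12 arrays, Pearson's r of log2 values was 0.46 between Reg1 and Reg2, 0.08 between Reg1 and Reg3b and 0.09 between Reg2 and Reg3b. After the group means were taken out these were 0.11, 0.05 and -0.39. Among 10387 brighter probe sets the 3 genes most like Reg1 were the keratin-associated Krtap5-1 (r = 0.91), the adhesion molecule Ceacam1 (r = 0.89) and Mospd2 (r = 0.89). Ceacam1 averaged 835 in gastrin-infused, 1024 in double and 1020.0 in saline-infused knockouts, against 565 in wild type. Of the 8 Ceacam1 probe sets, 2 were higher in the double knockout than in wild type in the sign of their difference, and 1 was called in each direction. Those most like Reg2 were the chromatin assembly subunit Chaf1b (r = 0.90), S1pr4 (r = 0.87) and St8sia3 (r = 0.87), and those most like Reg3b were Mocos (r = 0.90), Rpl13a (r = 0.89) and the sialidase Neu1 (r = 0.89). Each is the top of many correlations over few arrays.

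Of the family's other genes, Reg3d, beside Reg3b on chromosome 6, read 243 to 300 in gastrin-infused, 254 to 347 in double and 224 to 339 in saline-infused knockouts, against 243 to 295 in wild type. Reg4, on chromosome 3, read 200 to 252 in gastrin-infused, 162 to 203 in double and 199 to 306 in saline-infused knockouts, against 154 to 245 in wild type. Neither was called in any of the 7 comparisons. Extl3, a glycosyltransferase reported as a receptor for Reg proteins, read 1308, 1224 and 1252 in gastrin-infused, 1518, 1539 and 1157 in double and 833, 809 and 908 in saline-infused knockouts, against 1088, 1251 and 1064 in wild type. Every saline-infused array was below every other array, a split whose share over all probe sets was not counted. This probe set (1434703_at) was called in 1 comparison, higher in the double knockout than in the saline-infused knockout by 0.71 ± 0.12 log2 units (adjusted p = 0.0121). That comparison called 5.98% of all probe sets. Gastrin-infused against saline-infused knockouts gave 0.57 ± 0.12 (adjusted p = 0.0549). A second Extl3 probe set (1421339_at) was above noise on 2 of 12 arrays, with -22, 13 and -11 in double knockouts and 110, 56 and 133 in wild type. It was called lower in the double knockout than in wild type (adjusted p = 0.0467; no fold is given, since the double-knockout values are within noise), where 1434703_at gave 0.30 ± 0.12 (adjusted p = 0.197). The Extl3 probe sets thus disagreed in direction between the double knockout and wild type, where 4.14% of all probe sets were called.

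Signals reported to act on Reg genes were followed in a list of 29, of which 24 were measured. In gastrin-infused against saline-infused knockouts 1 rose and 1 fell, where 1.25% of all probe sets were called. The gastrin receptor Cckbr averaged 890.0 ± 112 in gastrin-infused and 305 ± 68.5 in saline-infused knockouts (SD, n = 3 each; log2 difference 1.56 ± 0.22, adjusted p = 0.0213), but a second Cckbr probe set gave 0.35 (adjusted p = 0.595). The bacterial lipopolysaccharide receptor Tlr4 averaged 457 ± 7.21 in gastrin-infused and 711 ± 80.4 in saline-infused knockouts and fell by 0.63 log2 units (adjusted p = 0.0276), while its second probe set gave -0.74 without passing (adjusted p = 0.144). In saline-infused knockouts against wild type Tlr4 rose by 0.52 ± 0.10 (adjusted p = 0.0364) and Gast fell. That comparison called 2.08% of all probe sets. In the double knockout against wild type 0 rose and Gast alone fell, where 4.14% of all probe sets were called. Gast is the deleted gene, so its falls repeat the label check and are no result about upstream signals. With gastrin absent against present, Tlr4 (0.35 ± 0.07) and the growth factor Tgfa (0.56 ± 0.12, adjusted p = 0.0316) rose, and Cckbr and Gast fell. This pooled comparison called 4.58% of all probe sets. The pooled Gast fall rests on wild type, the only group with Gast above noise. The other Tgfa probe sets gave 0.37 and 0.23 without passing, and the other Tlr4 and Cckbr probe sets 0.29 and -0.33, also without passing. The transcription factor Stat3 and its feedback inhibitor Socs3 were called in no comparison.

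Among genes of mucosal defence, Pigr was the 1 called higher than wild type in both groups that lack gastrin. Of all probe sets, 2.08% were called in saline-infused knockouts against wild type and 4.14% in the double knockout against wild type. Of 28 measured (of 32 listed), 4 rose and 0 fell in saline-infused knockouts against wild type: Clca1, a goblet-cell protein (2.50 ± 0.42 log2 units, adjusted p = 0.0258), Pigr, which carries antibody across epithelium (1.82 ± 0.27, adjusted p = 0.0168), the lectin Lgals3 (1.18 ± 0.23) and Cd14, a partner of Tlr4 (0.51 ± 0.10). A second Clca1 probe set gave 0.97 without passing (adjusted p = 0.440), and a second Pigr probe set passed too (1.64, adjusted p = 0.0311). Pigr averaged 2812 ± 655 in saline-infused knockouts and 794 ± 158 in wild type (SD, n = 3 each). The list's median log2 difference was 0.45 here, 0.02 in the double knockout against wild type and -0.18 in the double knockout against the saline-infused knockout, against 0 over all probe sets in each. The forestomach markers had a median of 0.93 in saline-infused knockouts against wild type and 0.36 in the double knockout against wild type, and their part in the defence genes was not tested.

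In the double knockout against wild type 1 of these 28 rose, Pigr, by 1.97 ± 0.27 log2 units (adjusted p = 0.00833). Lgals3 averaged 3361 ± 1221 in double knockouts and 3922 ± 426 in wild type (SD, n = 3 each). In the double knockout against the saline-infused knockout 0 rose and 2 fell, where 5.98% of all probe sets were called. Lgals3 fell by 1.46 log2 units (adjusted p = 0.0110), and Wfdc2, which carries protease inhibitor-like domains, fell by 0.57 (adjusted p = 0.0459). Gastrin-infused knockouts had 1 that fell against saline-infused ones, Lgals3, by 1.61 log2 units (adjusted p = 0.0240). Of all probe sets, 1.25% were called in that comparison. With gastrin absent against present 3 rose, Pigr, Clca1 and Cd14, and 0 fell, where 4.58% of all probe sets were called.

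Markers of the gastric cell types fell or were not called in the pooled comparison, where 4.58% of all probe sets were called in either direction. In the pooled comparison 0 of 7 measured enterochromaffin-like cell markers rose and 4 fell, among them chromogranin A (Chga), by 1.96 log2 units (adjusted p = 0.00104), and infusion raised 3 of the 7 in the knockout, Chga by 2.35 ± 0.21. The infusion comparison called 1.25% of all probe sets. Among parietal cell markers 0 of 10 rose and 6 fell with gastrin absent, among chief cell markers 0 of 5 and 3, and among surface mucous and neck cell markers 0 of 5 and 1. The chief and mucous falls came with the double knockout, where 3 of 5 chief and 4 of 5 mucous and neck markers fell against wild type, while in saline-infused knockouts against wild type 0 of 5 of either list were called. These comparisons with wild type called 4.14% (double knockout) and 2.08% (saline-infused) of all probe sets. Bright probe sets read lower on the double-knockout arrays, as Clps did, and the part of this in the chief and mucous falls was not tested. Of 18 leukocyte markers 1 rose (Mcpt1, a mast cell protease) and 0 fell in the pooled comparison, and none was called in the 6 pairs of groups. A list with 1 call is too small to set against the share of all probe sets. Of 17 forestomach markers 2 rose and 0 fell in the pooled comparison, Ly6d and Serpinb5.

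**Figure D4:**
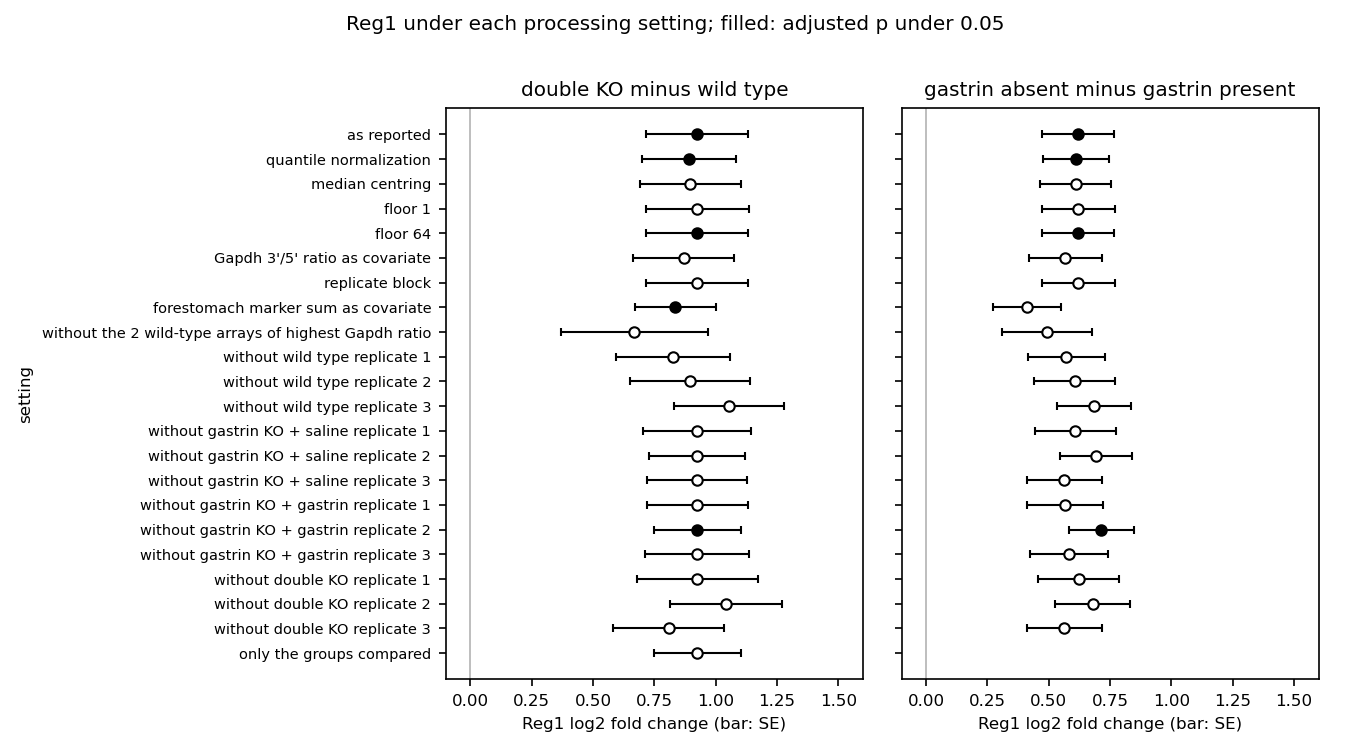
Reg1's log2 fold change (x, bar: SE) under each processing setting, for the double knockout minus wild type and for gastrin absent minus present, filled where the adjusted p is under 0.05. Every point lies above 0, between 0.67 and 1.05 on the left and 0.41 and 0.71 on the right, and most are unfilled.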

How the data were processed

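Deposited microarray intensities (1 value per probe set and array, some negative) were used as the authors deposited them; the sources used here do not give their summary, background or scaling methods. Values were raised to at least 16 and taken to log2 with no further scaling. One mean per group was fitted over all 12 arrays with limma 3.58.1 (lmFit and eBayes) in R 4.3.3, on 22626 probe sets after 64 of 22690 were removed as controls. Residual degrees of freedom were 8 plus 1.10 from the prior, p-values were adjusted by Benjamini-Hochberg, and an adjusted p under 0.05 was a call. The fit was tested on simulated data. Probe sets were named from GEO's platform annotation and all 6 Reg probe sets matched 1 gene in the GRCm38.p6 RefSeq table; promoters came from RefSeq. Every Reg probe set was named; from each gene list, called genes were counted, with the brightest probe set per gene and up to 4 named. Like genes were the 3 with the highest Pearson's r. The members and lists were chosen with earlier results of these data known. Arrays number 3 per group, which limits precision. Alternatives covered scaling, floor, covariates and left-out arrays.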

Additional observations from a re-analysis of the deposited data

How the results depend on the processing

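The count of Reg probe sets called in the double knockout against wild type, 1 as reported, was 1 with quantile normalization, a floor of 64 or the forestomach sum as covariate. It was 0 with median centring (Reg1 adjusted p = 0.0522), a floor of 1 (0.0503), the Gapdh ratio as covariate (0.0678), the replicate number as a block (0.0655), only the groups compared (0.106) and without the 2 wild-type arrays of highest Gapdh ratio (0.432), and 0 to 1 with 1 array left out. With gastrin absent against present, 1 as reported, the count was 1 with quantile normalization or a floor of 64. It was 0 with median centring, a floor of 1, the Gapdh covariate, the block, the forestomach covariate and without those 2 wild-type arrays, and 0 to 1 with 1 array left out. In the double knockout against the saline-infused knockout the count of 0 became 1 with the Gapdh covariate (Reg3b lower, adjusted p = 0.0385). The forestomach covariate and the 2 wild-type arrays left out were chosen after seeing the data. The cause of these changes was not tested. The other 5 counts stayed at 0 in every alternative run.

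Directions turned only for differences that were not called. Reg1 in gastrin-infused against saline-infused knockouts became 0.0135 with the forestomach covariate. Reg3b (1416297_s_at) in the same comparison became 0.0997 with that covariate and ran from -0.159 to 0.0331 with 1 array left out. In the double knockout against wild type it became 0.0208 with the Gapdh covariate and 0.292 without the 2 wild-type arrays, and ran from -0.247 to 0.0579 with 1 array left out. With gastrin absent against present it became -0.00114 with median centring and -0.109 with the forestomach covariate, and ran from -0.0797 to 0.0729. Reg2 ran from -0.0198 to 0.489 in gastrin-infused knockouts against wild type and from -0.175 to 0.0831 against double knockouts.

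As a description over 12 arrays, deviations from the group means correlated with the Gapdh ratio at r = -0.40 for Reg1, -0.52 for Reg2 and 0.77 for Reg3b. This ratio's part in their differences was not tested beyond the covariate fits.

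Over all probe sets the number called was 470 as reported (22 to 746 in the alternatives) for saline-infused knockouts against wild type, 282 (20 to 593) for gastrin-infused against saline-infused knockouts, 936 (43 to 1140) for the double knockout against wild type and 1352 (208 to 1525) for it against saline-infused knockouts. It was 25 (3 to 62) for gastrin-infused knockouts against wild type, 1319 (295 to 1509) against double knockouts, 1037 (191 to 1443) for gastrin absent against present and 1742 (706 to 2184) for the F test. Same-numbered arrays did not deviate together (r from -0.36 to 0.51, 5 of 18 pairs over 0.1; 4 of 12 arrays correlated best with their own number), so the block pairs nothing. The filter on probe sets below the median removed all 6 Reg probe sets and gave no value. Signal close to noise limits Reg3a, Reg3g and 1 Reg3b probe set.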
